A study of Mus musculus with 5 samples.

Results

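Ferritin stores iron in the heart, and the genes described here make its subunits, release its iron and fill it. They are Fth1 and Ftl1 (the heavy and light ferritin chains), Ncoa4 (the cargo receptor that carries ferritin to the lysosome) and Pcbp1 and Pcbp2 (RNA-binding proteins that also deliver ferrous iron). The members were chosen by gene symbol, through the Ensembl gene IDs of the count tables, and are 5 of 49315 genes. Poly-A RNA of mouse hearts was sequenced after 18 weeks on a high-fat, high-sucrose diet (HFHS, 3 libraries) or on standard chow (2 libraries). All the mice, chow controls included, had received 1 intravenous dose of iron dextran, in which the iron is held by a polysaccharide. The hearts were perfused with buffered saline and frozen 48 hours after the iron. No library without iron is part of the comparison, so it addresses how the diets differ once iron has been given. The labels give no strain, sex, age or genotype.

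The ferritin shell is built from heavy chains, which oxidise ferrous iron as it enters, and light chains, which help the mineral core to form inside. When cells need that iron, NCOA4 binds the heavy chain and draws ferritin into autophagosomes that fuse with lysosomes, a route called ferritinophagy. The PCBP proteins bind ferrous iron in the cytosol and hand it to ferritin and to iron-dependent enzymes. Iron regulatory proteins hold back translation of ferritin mRNA when iron is scarce and protect transferrin receptor mRNA from decay. The level of ferritin protein therefore depends on translation as well as on mRNA, and only mRNA was measured here.

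The libraries held 14362766 to 17774735 counts each, of which 30.3% to 33.8% were from mitochondrially encoded genes, and 3 counts, the limit that a count of 0 allows, were worth 0.169 to 0.209 CPM (counts per 1000000 counts of a library; counting error only). Markers of heart muscle cells summed to 60010 to 68800 CPM, led by the myosin heavy chain Myh6, which fits the labelled tissue, and the labels call the cells mixed. That each library is a separate mouse is stated nowhere but in the labels' numbering, so p-values cover only the spread among libraries. With edgeR's quasi-likelihood test and an adjusted p (Benjamini-Hochberg) of 0.05, 5417 of 14221 genes were called, which is 38.1%; 19.4% were higher and 18.7% lower in HFHS hearts. For 58.5% of tested genes the HFHS and chow libraries did not overlap. Against that background, 1 of the 5 members was higher (Ncoa4), 2 were lower (Fth1 and Ftl1) and 2 did not pass (Pcbp1 and Pcbp2). The groups did not overlap for 3 of the 5 members.

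Both ferritin mRNAs carry an iron-responsive element in their 5′ untranslated region, the hairpin that iron regulatory proteins bind. It is shown because it is nearly the same in both ferritin mRNAs, and the same kind of hairpin was searched for in the other genes of iron regulation. The capitals mark the bulged C and the loop of 6 bases.
Fth1 chr19:9982732-9982759 (+): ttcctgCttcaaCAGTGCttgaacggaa
Ftl1 chr7:45459780-45459807 (-): gtcttgCttcaaCAGTGTttgaacggaa
Both elements lie in exon 1, and 25 of their 28 bases are identical (GRCm38, GENCODE M21 transcripts). That of Fth1 ends 111 genome bases and that of Ftl1 149 genome bases before the start codon. The letters alone (a C, 5 bases of any kind, CAGTG and 1 further base, on the transcript strand) were found in the first 300 bases of a coding transcript for 21.9% of 12875 genes, and with a paired stem of 5 on both sides of the loop for 0.233%. Ncoa4 and Pcbp2 had the letters without the stem, and Pcbp1 had neither. A match describes the letters and shows no binding.

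Fth1 had the highest level per length of the members in every library. Its counts were 12848, 10740 and 12148 in HFHS libraries 1, 2 and 3 and 22208 and 23447 in chow libraries 1 and 2. Scaled by library size these were 802, 771 and 821 CPM in HFHS hearts and 1202 and 1302 CPM in chow hearts. All 3 HFHS libraries lay below both chow libraries. Fth1 (ENSMUSG00000024661, chromosome 19 from 9982703 to 9985092, + strand, GRCm38) was 1.57-fold lower in HFHS hearts (log2 fold change -0.65, SE 0.0673, adjusted p 5.67e-06). The coefficient of variation was 3.17% over the HFHS libraries and 5.66% over the chow libraries, where the lowest count allows 0.965% from counting alone.

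The size of that difference depended on how exon length was treated. Fth1 has an exon length of 866 bases in the tables, among the shortest 10% of tested genes. Fold changes in these libraries followed exon length over all genes, from a median log2 fold change of -0.47 in the shortest of 10 equal groups (57 to 1436 bases) to 0.32 in the longest. With an offset per library for the smooth trend of counts on exon length, the Fth1 difference shrank to -0.14 (adjusted p 0.141), and with exon length and GC content together to -0.16 (adjusted p 0.0979). A stiffer trend gave -0.22, which passed (adjusted p 0.03), and a looser one gave -0.15, which did not (adjusted p 0.126). Over all alternatives the adjusted p of Fth1 ran from 1.32e-20 to 0.141 and the direction stayed lower. The source of the length trend was not tested.

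**Figure D1:**
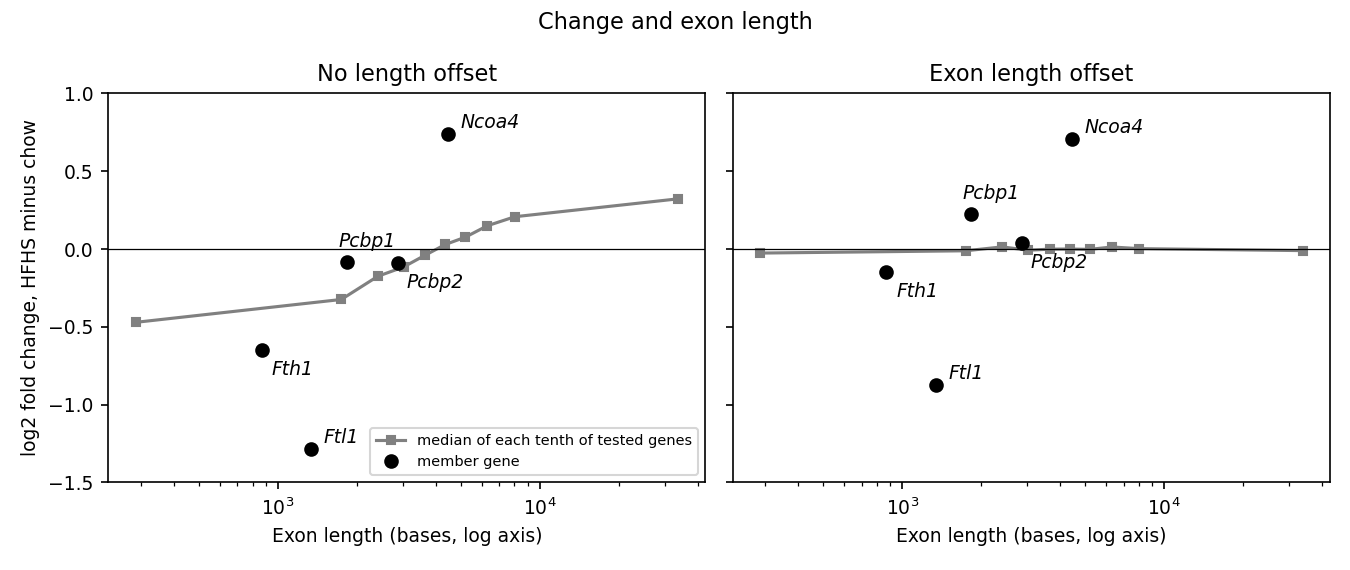
Log2 fold change (HFHS minus chow) against exon length on a log axis, without an offset (left) and with the exon length offset (right). Grey squares are the medians of 10 equal groups of tested genes, placed at the geometric middle of each group's length range, and black points are the members. Fth1 moves from -0.65 to -0.14 and Pcbp1 from -0.08 to 0.23, while Ftl1 and Ncoa4 stay away from 0.

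Ftl1, the light chain, was lower as well. Its counts were 1759, 1581 and 2068 in HFHS libraries 1, 2 and 3 and 5231 and 5538 in chow libraries 1 and 2. In CPM it stood at 109.85, 113 and 139.8 in the HFHS libraries and at 283 and 308 in the chow libraries. No HFHS library reached the chow levels, and HFHS library 3 was the highest of its group. Ftl1 (ENSMUSG00000050708, chromosome 7 from 45457944 to 45459884, - strand) was 2.44-fold lower (log2 fold change -1.29, SE 0.0946, adjusted p 2.67e-07). Only 1.27% of tested genes had a lower log2 fold change. Its exon length of 1340 bases is also in the shortest group, and the offset for exon length left -0.88 (adjusted p 5.76e-06); over all alternatives the log2 fold change ran from -1.40 to -0.87 and the adjusted p from 1.16e-58 to 3.49e-05. Leaving out each library in turn gave -1.40 to -1.22. In a bulk sample, fewer cells of a type and less RNA per cell cannot be told apart.

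**Figure D2:**
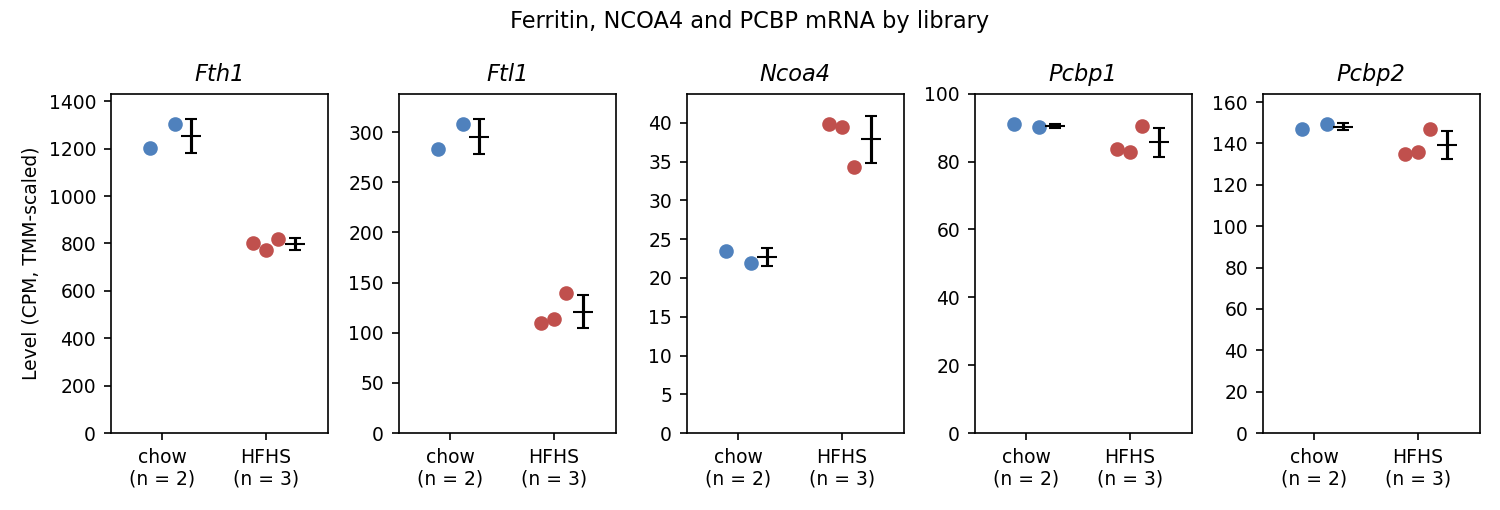
Level of each member in CPM scaled by TMM library sizes, on axes that start at 0. Points are libraries (2 chow, 3 HFHS) and the black bars are the group mean ± SD. The HFHS points of Fth1 and Ftl1 lie below and those of Ncoa4 above all chow points, while the groups overlap for Pcbp1 and Pcbp2.

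The balance of heavy to light chain mRNA was then compared within each library, where no library size is needed. The ratio of Fth1 to Ftl1, both as counts per kilobase of exon, was 11.3, 10.5 and 9.09 in HFHS libraries 1, 2 and 3 and 6.57 and 6.55 in the chow libraries. Every HFHS library had more heavy chain mRNA per light chain mRNA than either chow library. The means were 10.3 ± 1.12 (SD, n = 3) and 6.56 ± 0.0127 (SD, n = 2), a 1.56-fold difference. The exact two-sided permutation test gave p = 0.1, which is the smallest p that the 10 arrangements of these libraries allow. With the lengths of the main transcripts in place of the exon lengths, the mean ratios were 6.94 and 4.42.

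The stretches before the start sites of the ferritin genes are printed because these are the members called lower without a length offset. Each is the 100 bases upstream of the RefSeq start (GRCm38.p6), 2 bases from the start in the tables for Ftl1 and 57 bases for Fth1. RefSeq lists another Fth1 start, 2103 bases from that in the tables, whose 100 upstream bases held neither CCAAT nor GGGCGG and are not printed. Capitals mark CCAAT or its reverse complement ATTGG, and GGGCGG or its reverse complement CCGCCC.
Fth1 chr19:9982546-9982645 (+): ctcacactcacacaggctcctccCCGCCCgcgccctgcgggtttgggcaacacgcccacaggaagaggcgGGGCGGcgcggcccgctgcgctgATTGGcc
Ftl1 chr7:45459887-45459986 (-): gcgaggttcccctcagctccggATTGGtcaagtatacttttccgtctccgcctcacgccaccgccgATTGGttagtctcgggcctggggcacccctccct
CCAAT on either strand was in both printed windows, against 18.9% of 32851 RefSeq promoters searched over the same length. GGGCGG was in that of Fth1 and not in that of Ftl1, against 24.7% of promoters. The letters TATAA lay outside the printed stretches, in the 50 bases from each of the 2 starts onward, where 1.74% of promoters have them. TGACNNNGC, the core letters of the antioxidant response element, was in neither window, against 4.82% of promoters. This says only that these letters are not in these windows. Windows of the other members were searched too and are not printed. Of these, 1 window of Ncoa4 held TGACNNNGC, at a RefSeq start 5924 bases from that in the tables, and no window of Pcbp1 or Pcbp2 did. The matches are of letters, with no measure of binding.

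Ncoa4, which brings ferritin to the lysosome, moved the other way. Its counts were 637, 549 and 508 in HFHS libraries 1, 2 and 3 and 434 and 394 in chow libraries 1 and 2. This made 39.8, 39.4 and 34.3 CPM in HFHS hearts and 23.5 and 21.9 CPM in chow hearts. Each HFHS library was above both chow libraries, with HFHS library 3 the lowest of its group. Ncoa4 (ENSMUSG00000056234, chromosome 14 from 32159865 to 32179855, + strand) was 1.67-fold higher (log2 fold change 0.74, SE 0.0999, adjusted p 5.90e-05). Its exon length of 4452 bases is near the middle of all tested genes, where the median log2 fold change was 0.03. The exon length offset left 0.71 (adjusted p 0.000107), and over all alternatives the adjusted p was between 2.83e-10 and 0.000969.

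Set against ferritin mRNA, the Ncoa4 values combine both differences. The ratio of Ncoa4 to the summed Fth1 and Ftl1 was 0.00886, 0.00908 and 0.00733 in HFHS libraries 1, 2 and 3 and 0.00330 and 0.00284 in the chow libraries. The HFHS ratios were all above both chow ratios, 2.74-fold by their geometric means. The exact two-sided permutation p was 0.1, again the smallest possible. The sum is mostly Fth1, so this ratio carries the dependence of Fth1 on exon length.

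**Figure D3:**
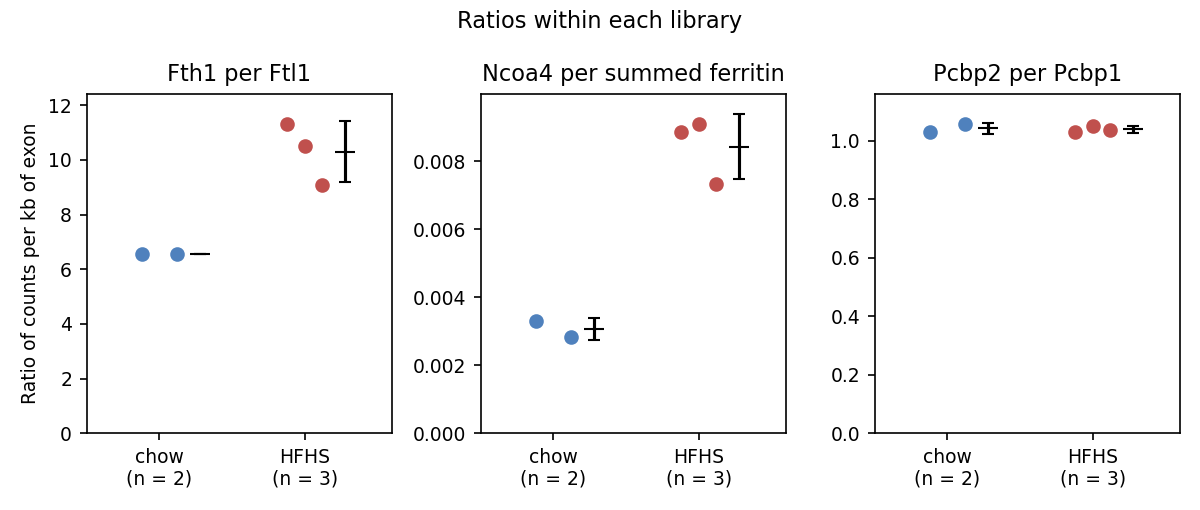
Ratios within each library of counts per kilobase of exon, on axes that start at 0. Points are libraries (2 chow, 3 HFHS) and black bars are the mean ± SD. Fth1 per Ftl1 and Ncoa4 per summed ferritin are higher in all 3 HFHS libraries, and Pcbp2 per Pcbp1 is near 1 in all 5.

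The iron chaperones did not pass the test in either direction. Pcbp1, which is the better known donor of iron to ferritin, had 1339, 1152 and 1340 counts in HFHS libraries 1, 2 and 3 and 1680 and 1623 counts in the chow libraries. Its levels were 83.6, 82.7 and 90.6 CPM in HFHS hearts and 90.9 and 90.2 CPM in chow hearts, and the groups overlapped. Pcbp1 (ENSMUSG00000051695, chromosome 6 from 86524492 to 86526321, - strand) is a gene of a single exon of 1830 bases. Its log2 fold change was -0.08 (SE 0.0755, adjusted p 0.434). Genes of that length had a median of -0.32, and the exon length offset turned the direction: the log2 fold change became 0.23 and passed (adjusted p 0.032). The other length offsets gave 0.21 to 0.23 with adjusted p of 0.0266 to 0.0368, and over all alternatives the adjusted p ran from 0.0266 to 0.694.

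Pcbp2, the chaperone that can also take iron from importers at the membrane, stood at 135, 136 and 147 CPM in HFHS libraries 1, 2 and 3. In the chow libraries it was at 147 and 149 CPM, so HFHS library 3 overlapped with them. Pcbp2 (ENSMUSG00000056851, chromosome 15 from 102470632 to 102500059, + strand) had a log2 fold change of -0.09 (SE 0.0726, adjusted p 0.379). With the length offsets it was 0.04 to 0.07, on the other side of 0 and without passing (adjusted p 0.498 to 0.714; 0.19 to 0.714 over all alternatives). The ratio of Pcbp2 to Pcbp1 per kilobase of exon was 1.03, 1.05 and 1.04 in the HFHS libraries and 1.03 and 1.06 in the chow libraries. It did not separate the groups (exact two-sided permutation p = 0.7).

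On the scale of TPM (counts per kilobase of exon, scaled to sum to 1000000 in each library), which allows levels of different genes to be compared, the order was the same in both groups. In chow hearts Fth1 was at 2791 ± 234 TPM and Ftl1 at 425.5 ± 36.5 TPM, followed by Pcbp2 at 99.5 ± 3.88, Pcbp1 at 95.4 ± 2.01 and Ncoa4 at 9.82 ± 0.225 (SD, n = 2). In HFHS hearts Fth1 was at 1757 ± 58.9 TPM and Ftl1 at 172 ± 24.1, followed by Pcbp2 at 92.7 ± 4.94, Pcbp1 at 89.2 ± 4.86 and Ncoa4 at 16.2 ± 1.23 (SD, n = 3). Pcbp2 and Pcbp1 were the closest neighbours in this order, with Pcbp2 slightly the higher of the pair in all 5 libraries. With the lengths of the main transcripts, the mean ratio of Pcbp2 to Pcbp1 was 1.009 in HFHS and 1.013 in chow hearts. The 2 genes are therefore nearly level. Fth1 ranked 25 and 23 among all genes in the chow libraries and 32, 35 and 34 in the HFHS libraries, and Ftl1 went from ranks 198 and 182 to 377, 366 and 304.

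Processed pseudogenes took few counts. Rows that the annotation names as pseudogenes and that match a member's transcript at 80% identity or more over at least 200 bases numbered 3 for Fth1, 17 for Ftl1, 1 each for Ncoa4 and Pcbp1, and 2 for Pcbp2. Their counts over all libraries were 12 beside 81391 for Fth1 (0.0147% of the sum), 42 beside 16177 for Ftl1 (0.259%) and 4 beside 2522 for Ncoa4 (0.158%). For Fth1 these were led by Fth-ps2 and Gm6977, with 5 counts each. Of the Ftl1 copies 10 had no count, and Ftl1-ps1, a copy on chromosome 13 with 99.6% identity that the annotation lists as protein coding, had 25. Gm6768, the Ncoa4 copy (chromosome 12 from 119260934 to 119264272), matches at 99.9% over 1878 bases. Gm12186, which matches both PCBP genes, had 2 counts.

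Few counts in the copies do not show where their reads went, since the handling of reads that fit several places is not given in the sources used here. Of the windows of 100 bases in the main transcript, 60.6% of those of Ftl1 and 39.8% of those of Ncoa4 occur letter for letter in a gene elsewhere in the genome, against 0.964% for Fth1 and 0% for Pcbp1 and Pcbp2. The levels of Ftl1 and Ncoa4, also on the TPM scale, are uncertain for this reason, by an amount that these shares do not measure. Adding the copies' counts to the members changed no member's call. Genes on the opposite strand also overlap: Gm10252 shares 355 exon bases with Ftl1 (26.5%) and had 12, 7 and 4 counts in HFHS and 27 and 19 in chow libraries. Map3k12 shares 1571 exon bases with Pcbp2 (54.8%), so without a stated strand setting their reads cannot be told apart. Among related genes, mitochondrial ferritin Ftmt and the Fthl17 genes had 0 counts in all 5 libraries. Pcbp3 was lower, at 1.37 ± 0.441 CPM (SD, n = 3) against 2.63 ± 0.495 CPM (SD, n = 2), with an adjusted p of 0.0368 that became 0.117, 0.1 and 0.221 without HFHS library 2, HFHS library 3 and chow library 1. Pcbp3 also lost its call under DESeq2, the replicate block and all 4 length offsets (adjusted p 0.0753 on exon length and 0.0731 with GC content), and kept it under 7 of 16 alternatives, with adjusted p from 0.0143 to 0.221. Pcbp4 did not pass (34.9 ± 6.83 against 32.3 ± 1.87 CPM, adjusted p 0.55).

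Genes of ferritin turnover other than the members included calls in both directions. Of 36 genes of autophagy and the lysosome, 10 were higher, 6 lower and 20 did not pass, with a median log2 fold change of 0.03 beside -0.01 for all tested genes. Over all tested genes 19.4% were higher and 18.7% lower, so the lower share of this list is near the background and the higher share above it. With the exon length and GC offset 7 genes of the list were higher and 6 lower. Of all 14193 genes tested with that offset, 2281 were higher and 2052 lower, so the higher share of the list was then closer to the background. Among those closest to NCOA4, Herc2, the ubiquitin ligase that marks NCOA4 for degradation when iron is plentiful, rose 1.83-fold (76.0 ± 0.367 against 41.5 ± 1.61 CPM, adjusted p 1.64e-06). Herc2 has an exon length of 16175 bases. Its log2 fold change of 0.87 became 0.48 with the exon length offset and 0.45 with GC content added, and it still passed. Atg9a, whose vesicles seed the autophagosome membrane, rose 2.31-fold from 13.1 and 13.9 CPM to 25.6, 32.7 and 35.5 CPM (adjusted p 1.06e-05). Tax1bp1, an adaptor in NCOA4-dependent ferritin delivery, rose 1.19-fold (adjusted p 0.0131). That call was lost under all length offsets, with a log2 fold change of -0.02 on exon length alone and 0.02 with GC content, and without HFHS library 1, HFHS library 2 or chow library 1 (adjusted p 0.0514, 0.063 and 0.06).

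Genes of the kinase complex that starts autophagy and of the ATG8 proteins on its membrane are given next, a choice made after the values were seen and with no test of either as a group. Of the complex, Atg13 rose 1.42-fold (51.8 ± 2.96 against 36.5 ± 1.48 CPM, adjusted p 0.000396) and the kinase Ulk2 1.36-fold (adjusted p 0.000432); Ulk1 and Rb1cc1 rose 1.34-fold and 1.26-fold, and Atg101 did not pass. Of the ATG8 proteins, Gabarap fell by 0.64 on the log2 scale (120.5 ± 8.14 against 188 ± 0.634 CPM, adjusted p 1.68e-05). The exon length offset left a log2 fold change of -0.34 for Gabarap. Gabarapl2, Map1lc3a and Map1lc3b were lower too, and Gabarapl1 did not pass. The calls of Rb1cc1, Gabarapl2 and Map1lc3a were lost under all 4 length offsets, that of Ulk1 under the stiffer one; Map1lc3a lost its call without chow library 2 (adjusted p 0.0764) and Map1lc3b without HFHS library 1 or chow library 2 (0.0905 and 0.0519). Atg13, Ulk2 and Gabarap kept theirs under all 17 alternatives. Ctsl, a lysosomal protease, was 1.54-fold lower (109.85, 102 and 112 against 161 and 172 CPM, adjusted p 2.02e-05). Its log2 fold change of -0.62 became -0.34 with the exon length offset and still passed. Without chow library 2 the list had 3 lower genes, and with the length offsets 6 or 7 higher genes.

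**Figure D4:**
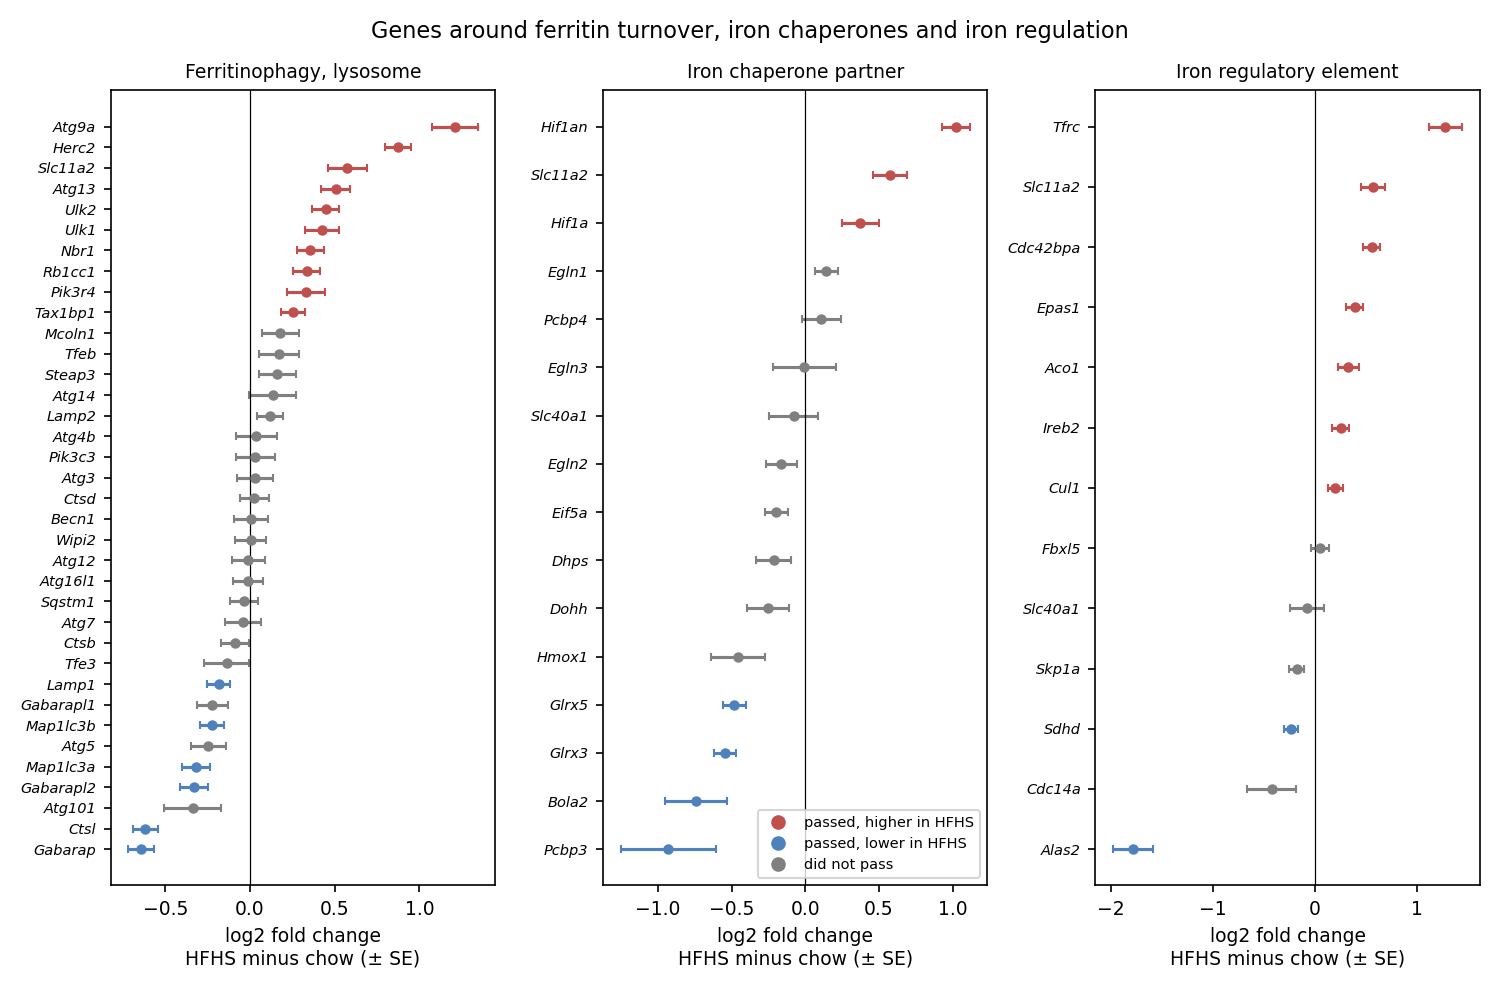
Log2 fold change (HFHS minus chow) ± approximate SE of the tested genes in the 3 lists: ferritinophagy and lysosome (36 genes), iron chaperone partners (16) and iron regulatory elements (13 of 14 shown). Red points passed and were higher, blue points passed and were lower and grey points did not pass. Atg9a, Hif1an and Tfrc stand at the top of their lists and Gabarap, Pcbp3 and Alas2 at the bottom.

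The partner list holds genes that receive iron from PCBP proteins or act with them, and also the paralogs Pcbp3 and Pcbp4. Of its 16 tested genes 3 were higher, 4 lower (Pcbp3 among them) and 9 did not pass. The median log2 fold change was -0.18 beside -0.01 for all tested genes. These shares are near the 19.4% higher and 18.7% lower of all tested genes. The iron-dependent hydroxylase Hif1an, which limits the activity of hypoxia-inducible factors, rose 2.03-fold (76.9, 88.9 and 86.9 against 44.4 and 38.3 CPM, adjusted p 2.02e-06). Hif1a itself was 1.29-fold higher with overlapping groups (adjusted p 0.0303; 0.0905, 0.13 and 0.327 without HFHS library 1, HFHS library 2 and chow library 2), and it lost its call under all 4 length offsets (0.137 on exon length and 0.0703 with GC content; 0.000218 to 0.327 over all alternatives). Slc11a2, the ferrous iron transporter that belongs to all 3 lists, rose 1.49-fold (adjusted p 0.00139). Glrx3, which joins PCBP1 and BOLA2 in handing iron to cytosolic iron-sulfur clusters, was 1.46-fold lower (93.4 ± 4.90 against 136 ± 0.268 CPM, adjusted p 6.03e-05). Its partner Bola2 was 1.67-fold lower at 3.66 ± 0.834 against 6.09 ± 0.122 CPM (adjusted p 0.0136; 0.0625 without HFHS library 1 and 0.051 without chow library 1). Glrx5, the mitochondrial glutaredoxin of iron-sulfur cluster assembly, was 1.40-fold lower (adjusted p 0.000326), and under the exon length offset its log2 fold change was 0.02 (adjusted p 0.9; 6.26e-06 to 0.949 over all alternatives). With the length offsets or without chow library 1, the list had 2 lower genes.

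Of 14 tested genes listed as carrying iron-responsive elements or acting on them, 8 were higher, 2 lower and 4 did not pass. Their median log2 fold change was 0.23 beside -0.01 for all tested genes, of which 19.4% were higher and 18.7% lower. With the length offsets 6 or 7 were higher and 2 lower, and with GC content included the median was 0.165. Of all genes, 2222 to 2281 were then higher and 2021 to 2052 lower. Tfrc, the transferrin receptor, rose 2.44-fold. Its transcript had no such hairpin in the first 300 bases and 4 when searched over its whole length, for which no background was computed. It was at 75.3, 78.2 and 121 CPM in HFHS libraries 1, 2 and 3 and at 39.5 and 35.7 CPM in chow libraries (adjusted p 3.89e-05). Alas2, which starts haem production in developing red cells, with a hairpin in the first 300 bases, was 3.45-fold lower (12.6 ± 4.68 against 43.4 ± 2.08 CPM, adjusted p 1.04e-05) and is also on the list of red cell markers. The exporter Slc40a1, with a hairpin there too, did not pass. The search found no such hairpin in Slc11a2, Epas1, Cdc42bpa, Cdc14a or Sdhd, even over whole coding transcripts. It asked for the exact loop letters and for all 5 stem positions to be paired. Hairpins with a mismatch or a further bulge are therefore missed, and the lack of a match does not show that an element is absent. Sdhd was lower without an offset (log2 fold change -0.24, adjusted p 0.0144) and higher with the exon length offset (0.20, adjusted p 0.0349). Hairpin-bearing mRNAs appear among the higher, the lower and the uncalled genes.

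The iron regulatory proteins were slightly higher. Aco1 rose 1.26-fold (33.1 ± 2.35 against 26.4 ± 3.05 CPM, adjusted p 0.0222), and its adjusted p was 0.0922, 0.0566 and 0.189 without HFHS library 1, HFHS library 2 and chow library 2. Ireb2 rose 1.19-fold (adjusted p 0.0244; 0.0672, 0.0504 and 0.115 without the same libraries). Ireb2 lost its call under the length offsets, with a log2 fold change near 0 on exon length alone and with GC content. Fbxl5, the iron-sensing subunit of the ligase that degrades IREB2, did not pass (37.5 ± 2.10 against 36.3 ± 0.542 CPM, adjusted p 0.691). Epas1, which encodes hypoxia-inducible factor 2 alpha, rose 1.31-fold (adjusted p 0.00293). Cdc42bpa rose 1.48-fold (adjusted p 0.000114) and lost its call under the length offsets (adjusted p 0.4 with exon length alone; 1.71e-07 to 0.405 over all alternatives). Without HFHS library 1, HFHS library 2 or chow library 2 the list had 5 higher genes, and without HFHS library 1 or HFHS library 2 it had 1 lower gene.

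Markers of several cell types, though not of heart muscle cells, were lower in HFHS hearts. Macrophages and red cell precursors handle much of the body's iron. In HFHS hearts 12 of 13 macrophage markers and 7 of 7 tested red cell markers were lower. Over all tested genes 18.7% were lower and 19.4% higher. With the exon length and GC offset, 10 macrophage, 7 red cell, 9 endothelial and 8 fibroblast markers were lower and 0 higher. Under that offset 2052 of all 14193 tested genes were lower and 2281 higher. Cardiomyocyte markers then had 6 higher and 4 lower, and pericyte and smooth muscle markers 1 higher and 2 lower. The macrophage markers summed to 201.5 to 233 CPM in HFHS and 506 to 582 CPM in chow libraries, led by Lyz2. The chow mean over the HFHS mean was 2.56 for this list and 4.26 for the red cell list. The red cell markers summed to 250.4 to 524.5 CPM and 1487 to 1703 CPM, led by the globin gene Hbb-bs. Among the HFHS libraries, library 3 had the highest sum of both lists, the highest Ftl1 and the lowest Ncoa4. It also had the highest Tfrc, although Tfrc was higher in HFHS than in chow hearts. These orders rest on 1 library, and a link between them was not tested. Endothelial markers summed to 1549 to 1566 CPM and 2461 to 2655 CPM (8 of 11 lower, 1 higher; led by Fabp4), and fibroblast markers to 1738 to 1749 CPM and 2490 to 2568 CPM (10 of 10 lower; led by Gsn). Cardiomyocyte markers summed to 65950 to 68800 CPM in HFHS and 60010 to 65880 CPM in chow hearts, with 5 of 11 higher and 4 lower. Pericyte and smooth muscle markers, led by Rgs5, stood at 1298 to 1358 CPM and 1471 to 1472 CPM (3 of 9 lower, 2 higher).

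Other blood cell markers were low, at 7.87 to 9.42 CPM and 21.4 to 24.5 CPM, led by the platelet gene Pf4. Of 5 tested, 3 were lower, and 1 with the exon length and GC offset. The neutrophil marker Ly6g was at 0 counts. The adipocyte sum of 214.2 to 234.5 CPM against 104.9 to 143 CPM was nearly all Plin4, which heart muscle also expresses, and the defining markers Adipoq and Lep had at most 1 count per library. Liver markers, led by Trf, summed to 6.17 to 16.9 CPM and 10.8 to 18.9 CPM. The part of these cell types in the differences of Fth1, Ftl1 and Ncoa4 was not tested.

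**Figure D5:**
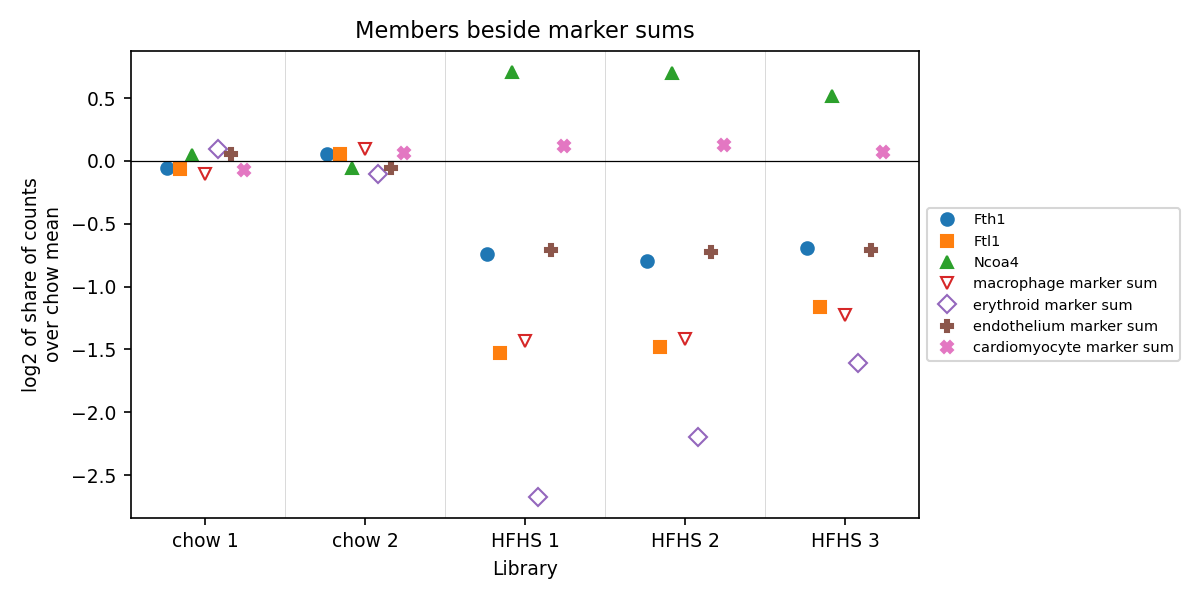
Share of all counts in each library relative to the chow mean (log2) for Fth1, Ftl1 and Ncoa4 and for the summed markers of 4 cell types. Each point is 1 library value, offset sideways for legibility. Ftl1 and the macrophage sum lie close together in the HFHS libraries, Fth1 lies near the endothelial sum, the red cell sum is the lowest and Ncoa4 is above 0.

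The genes with profiles most like each member's were found over the 5 libraries among 7815 genes with a mean of at least 10 CPM, by the root mean square difference of centred log2 CPM. Closest to Fth1 were the lysosomal protease Ctsl (0.0225), Acbd6 (0.0238) and Taf10 (0.0248). Closest to Ftl1 were C1qc (0.0512) and C1qb (0.0574), which encode chains of complement C1q and are on the macrophage list, and Ctla2a (0.0616). Closest to Ncoa4 were Cast (0.0282), Cmtr1 (0.0392) and Msi2 (0.0396). Pcbp1 was closest to Gle1 (0.00703), Pcbp2 (0.015) and Cog4 (0.0168), and Pcbp2 to Nus1 (0.0104), Mrpl38 (0.0135) and Zrsr2 (0.0142). With 5 libraries in 2 groups, such likeness mostly reflects a similar fold change between the diets.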

How the data were processed

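Poly-A RNA of mouse heart was sequenced in 5 libraries. The authors deposited raw counts per gene, 1 table per library. The submitters' processing notes name STAR 2.5.2b, Trimmomatic 0.36, featureCounts and Subread 1.5.2, and the GRCm38 build. Columns give, per the file headers, gene IDs of Ensembl, positions and strand of the exons, their summed length and the count. No source used here gives the strand setting, the treatment of multiply mapping reads or the annotation release. Symbols came from GENCODE M21, in which 49056 of 49315 genes were found; promoters came from RefSeq (GRCm38.p6, 5 of 5 members matched).

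Counts were tested on the diet group in R 4.3.3 with edgeR 4.0.16 (TMM factors, filterByExpr, glmQLFit and glmQLFTest; Benjamini-Hochberg adjustment over all 14221 tested genes, adjusted p of 0.05). Fold changes are given as log2 of HFHS over chow, with approximate SEs derived from the F statistic. TMM library sizes underlie CPM values, and total counts underlie marker sums. No pair of libraries agreed within sampling noise (chi-square per degree of freedom of 2.7 or more), so none was treated as a library deposited more than once; this does not show that they come from separate mice. Copies of members were searched with blastn 2.17.0. Tried as alternatives were DESeq2 1.42.0, limma-voom (limma 3.58.1), other size factors, other filters on low counts, mitochondrial genes left out, offsets on exon length and GC content (mgcv 1.9.3; GC known for 99.8% of tested genes), the replicate number as a block, each library left out, a stricter threshold and added pseudogene counts.

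The members, gene lists and marker lists were chosen with earlier results of these data known. Named genes were the members, their paralogs and leading copies, the 6 genes of each list with the smallest p, 8 genes of iron regulation whatever their p, the 3 most similar profiles per member and the leading gene of each marker list. Of these, 1 gene that met this rule is not reported here.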

Additional observations from a re-analysis of the deposited data

How the results depend on the processing

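Ftl1 and Ncoa4 kept their direction and stayed past the threshold under all 18 alternatives each. Offsets on exon length took Fth1 to -0.145, on exon length and GC content to -0.155 and, with a looser trend, to -0.152, none past the threshold; the cause was not tested. They turned Pcbp1 to 0.226 (exon length), 0.208 (with GC), 0.234 (stiffer trend) and 0.225 (looser trend), and Pcbp2 to 0.0422, 0.0414, 0.0711 and 0.0416. The stiffer and looser trends were chosen after seeing the data. Members higher then numbered 2 under each offset, and members lower 1 under all but the stiffer trend. Under the same offsets 2222 to 2281 of all genes were higher and 2021 to 2052 lower (14193 genes tested with GC content, 14221 without). Of the ferritinophagy list 6 genes were higher under the offsets without GC, and of the chaperone partner list 2 were lower under all 4. At an adjusted p of 0.01, 1729 of all genes were lower, 2 chaperone partners were lower, and 5 genes of the regulatory element list were higher and 1 lower. Leaving out each library gave 3 to 8 lower genes in the ferritinophagy list, 2 to 6 in the partner list, and 5 to 8 higher and 1 to 2 lower in the regulatory element list.

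With the replicate number as a block, 5332 genes passed and 7 chaperone partners were lower, against 4 without the block; no member's call changed. Same-numbered libraries did not deviate together (correlations of 0.00416 and -0.0703 over 7993 genes). These 2 pairs are too few to show whether such libraries share more than a number. Upper quartile factors moved the median of all genes to -0.05 and the share of calls that were higher from 50.9% to 45.4%. With 2 chow libraries the exact test of a ratio cannot go below 0.1. Depth limits Pcbp3 and Bola2 most.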
